A study of Mus musculus with 24 samples.

Results

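Expression of 10 genes that mark oligodendrocyte precursor cells (OPCs) and the committed, pre-myelinating stage that follows them was compared between WT and Kdm6b-cKO cortical nuclei at P1 and P30. The genes were taken by symbol from the 25135 genes listed at each age, and all 10 were found at both ages. Of these, 7 are carried by precursors at the cell surface or in the matrix (Pdgfra, Cspg4, Vcan, Ptprz1, Lhfpl3, Tnr and Cspg5), and 3 mark committed cells (Gpr17, Bcas1 and Enpp6).

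OPCs divide under platelet-derived growth factor, which they read through the receptor Pdgfra, and they surround themselves with chondroitin sulfate proteoglycans and tenascin. A precursor that leaves the cycle passes through a short committed stage in which the G protein-coupled receptor Gpr17, the phosphodiesterase Enpp6 and the cytoplasmic protein Bcas1 come on. Myelin genes follow. KDM6B removes the repressive histone mark H3K27me3. Several of the precursor genes are not exclusive to OPCs: Ptprz1, Vcan, Tnr and Cspg5 are also known from astrocytes, radial glia or neurons, Cspg4 from pericytes and Pdgfra from fibroblasts.

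The WT mice were Kdm6b wt/wt and the Kdm6b-cKO mice were Emx1-Cre; Kdm6b f/f, all on a SUN1-GFP reporter background and backcrossed to C57BL/6. Emx1-Cre acts in dorsal telencephalic progenitors, so a library holds nuclear RNA of the cells that descend from them, sorted from cortex by green fluorescence (FANS). Both genotypes came from crosses of Emx1-Cre with floxed mice. There were 6 libraries for each genotype and age, P1 being postnatal day 1 and P30 postnatal day 30, and 24 in all. Nothing ties a library to an animal, so the spread between libraries may be partly technical. Bulk RNA cannot tell fewer cells of a type from less RNA per cell.

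Values are FPKM, fragments per kilobase of transcript scaled to library size, and libraries carry the numbers 0 to 5 in each group. Effective depth, read from the steps that 1 read makes in low values, ran from 816000 to 3900000 reads in WT at P1, from 191000 to 2850000 in Kdm6b-cKO at P1, from 5130000 to 8320000 in WT at P30 and from 1940000 to 8060000 in Kdm6b-cKO at P30. Kdm6b-cKO libraries 0 and 5 were the shallowest at P1 (343000 and 191000 reads) and Kdm6b-cKO libraries 2, 3 and 4 at P30. At P1, WT libraries 2 to 5 and Kdm6b-cKO library 5 had 397 to 794 olfactory receptor genes above 0, while the other 7 libraries had 2 to 22. The split at P30 was by 45S ribosomal RNA: WT library 0 and Kdm6b-cKO libraries 0, 1 and 5 were under 1000 FPKM of it and the other 8 above. The whole-gene level of Kdm6b at P1 was 37.8 ± 11.3 (WT) and 29.0 ± 9.67 FPKM (Kdm6b-cKO; SD, n = 6 each), and at P30 21.6 ± 4.08 and 23.4 ± 4.36 FPKM, and the groups overlapped at both ages. The floxed exons were not analysed here, and genotypes are those of the labels. The levels of 6 OPC markers were summed (Pdgfra, Cspg4 and Lhfpl3 from the genes under study, and Olig1, Olig2 and Sox10). The sums were 39.0 to 57.9 FPKM per WT library and 22.1 to 39.7 per Kdm6b-cKO library at P1. At P30 they were 15.5 to 25.9 and 9.6 to 20.6, and no marker was at 0 throughout a group. As they include genes under study, these sums are a description only and do not show descent from Emx1 progenitors.

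On the mouse build mm9, Pdgfra lies at chr5:75548316-75594229, Tnr at chr1:161667641-161855053, Lhfpl3 at chr5:22252011-22618785 and Ptprz1 at chr6:22825502-23002916, all on the plus strand. Bcas1 lies at chr2:170172491-170253345 on the minus strand and Enpp6 at chr8:48072279-48180249 on the plus strand. The FPKM of a gene is summed over its annotated transcripts. Pdgfra, Tnr and Lhfpl3 varied together across the P1 libraries, as described further on, and Ptprz1, the 1 gene that was not lower at P1, is set beside them. The 250 bases before the RefSeq start of each of the 4 (build GRCm38.p6, 5′ to 3′ on the gene's strand) are therefore shown, with any match to the SOX core words ACAAAG or ACAATG, on either strand, in capitals.
Pdgfra, chr5:75152001-75152250, plus strand: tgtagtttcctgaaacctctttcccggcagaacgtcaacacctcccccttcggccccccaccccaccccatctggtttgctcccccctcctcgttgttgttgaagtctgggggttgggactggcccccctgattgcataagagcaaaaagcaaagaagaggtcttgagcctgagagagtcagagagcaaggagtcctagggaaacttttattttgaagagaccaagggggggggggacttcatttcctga
Tnr, chr1:159523519-159523768, plus strand: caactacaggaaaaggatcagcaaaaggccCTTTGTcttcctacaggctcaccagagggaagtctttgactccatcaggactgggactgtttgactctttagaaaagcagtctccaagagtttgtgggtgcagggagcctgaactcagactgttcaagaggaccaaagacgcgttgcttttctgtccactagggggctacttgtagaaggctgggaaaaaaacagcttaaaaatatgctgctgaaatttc
Lhfpl3, chr5:22745804-22746053, plus strand: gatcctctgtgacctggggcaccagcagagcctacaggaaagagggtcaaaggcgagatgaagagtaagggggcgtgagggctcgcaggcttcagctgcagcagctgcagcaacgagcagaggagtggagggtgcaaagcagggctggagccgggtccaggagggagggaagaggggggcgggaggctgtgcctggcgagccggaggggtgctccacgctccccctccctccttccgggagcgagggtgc
Ptprz1, chr6:22875252-22875501, plus strand: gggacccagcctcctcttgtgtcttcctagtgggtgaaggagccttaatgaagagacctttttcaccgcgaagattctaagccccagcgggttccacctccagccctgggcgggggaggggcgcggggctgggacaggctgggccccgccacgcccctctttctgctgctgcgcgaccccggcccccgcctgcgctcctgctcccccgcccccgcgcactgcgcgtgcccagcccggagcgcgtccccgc
RefSeq promoter windows were found for 7 of the 10 genes. Tnr held 1 ACAAAG, read on the minus strand, and Enpp6 held 1 ACAATG, while the windows of Pdgfra, Lhfpl3, Ptprz1, Cspg4 and Vcan held neither word. Over 32851 promoter windows of the same length, 16.5% held ACAAAG, 10.7% held ACAATG and 25.2% held either. CG pairs numbered 22 in the Ptprz1 window, 11 in Lhfpl3, 4 in Pdgfra and 2 in Tnr, against a median of 6 over all windows. The 3 genes that varied together thus lie on both sides of that median, and a match is a run of letters and not a binding site.

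At P1, 9 of the 10 genes were lower in Kdm6b-cKO by their mean on the log2 scale and 1, Ptprz1, was higher, and none of them passed the test over all genes. The test was limma on log2(FPKM + 0.1) with Benjamini-Hochberg adjustment over the 16250 genes that averaged 1 FPKM or more, and genes were called at an adjusted p under 0.05 if they also differed by over 2-fold. No gene of the 16250 was called in either direction (0%), and the smallest adjusted p of any gene was 0.160. At an unadjusted p under 0.05, Gpr17, Tnr, Pdgfra and Bcas1 were lower (4 of 10), against 7.77% of all genes lower and 6.7% higher. The median log2 fold change over the 10 genes was -1.72, against -0.25 over all genes tested, and with quantile normalization these medians were -0.75 and -0.02. Of all genes, 63.2% had a negative fold change at P1, so the common shift has to be read beside each value below. Gpr17 and Enpp6 averaged under 1 FPKM in Kdm6b-cKO and entered the fit through WT, so the counts and medians over the 10 genes are descriptions only.

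**Figure D1:**
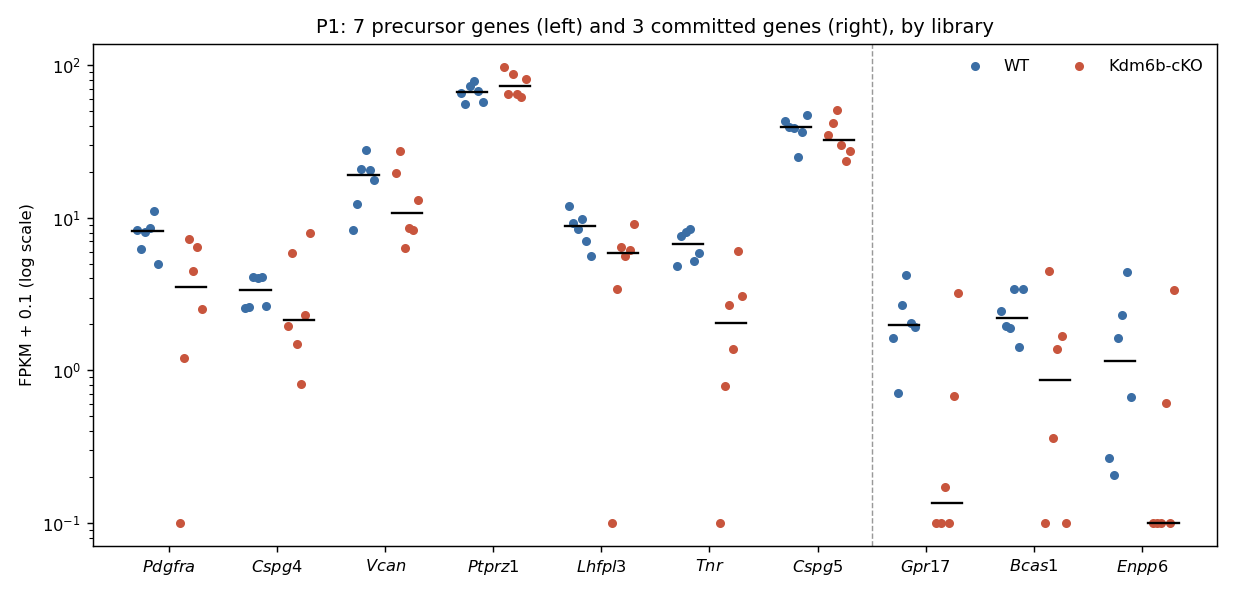
FPKM + 0.1 on a log scale in each of the 6 WT (blue) and 6 Kdm6b-cKO (red) libraries at P1, with 1 point per library and a black bar at the group median, for the 7 precursor genes left of the dashed line and the 3 committed genes right of it. Points at 0.1 are listed at 0 FPKM. The Gpr17 and Enpp6 medians of Kdm6b-cKO lie at or near the bottom of the plot, while Ptprz1, Cspg5 and Cspg4 overlap between the groups.

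Gpr17 had the largest difference of the 10 genes at P1. It was listed at 1.52, 0.611, 2.58, 4.09, 1.94 and 1.82 FPKM in WT libraries 0 to 5, and at 0, 0, 0.0709, 0, 0.582 and 3.11 FPKM in Kdm6b-cKO libraries 0 to 5. Thus 5 of the 6 Kdm6b-cKO libraries lay below every WT library and 1, library 5, lay inside the WT range. The means were 2.09 ± 1.17 and 0.627 ± 1.24 FPKM (SD, n = 6 each). The log2 fold change was -2.84 (SE 0.95, 95% interval -4.86 to -0.82, adjusted p = 0.211). The unadjusted limma p was 0.0089, and an exact two-sided permutation test over the 924 splits gave p = 0.0216, with 0.00216 the smallest possible. Of all genes tested, 7.76% were lower at a permutation p under 0.05.

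These levels rest on few reads. In whole reads, Gpr17 had 19, 12, 30, 27, 8 and 10 in WT and 0, 0, 1, 0, 8 and 3 in Kdm6b-cKO, together 106 against 12. Per 1000000 effective reads the pooled values were 8.91 and 1.23, so that Kdm6b-cKO stood at 13.8% of WT. A count of 0 allows up to 3 reads, which is 1.74 FPKM in Kdm6b-cKO library 0, 0.714 in library 1 and 0.209 in library 3. The limit in library 3 lies below the lowest WT value, that of WT library 1. Those in libraries 0 and 1 lie above it, so at their depth such a level is not excluded. The 3.11 FPKM of Kdm6b-cKO library 5 are 3 reads. Without libraries 0 and 5 the log2 fold change of Gpr17 was -3.38 (adjusted p = 0.103), and with libraries weighted by depth it was -2.87 with an adjusted p of 0.0436, in a fit that called 1.29% of all genes lower and 1.22% higher. Without a filter the adjusted p was 0.230 in the fit without weights, and the weighted fit was not run without the filter.

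Bcas1, the other committed gene below the unadjusted threshold, was less even. Its values were 2.34, 1.85, 1.79, 3.31, 1.33 and 3.31 FPKM in WT libraries 0 to 5 and 0, 4.35, 0.258, 1.27, 1.59 and 0 FPKM in Kdm6b-cKO. The groups overlapped, since Kdm6b-cKO library 1 was above every WT library and 4 Kdm6b-cKO libraries were below every WT library. The log2 fold change was -2.0 (SE 0.92, limma p = 0.0467, adjusted p = 0.339), and the exact permutation p was 0.0779. Both values of 0 came from the shallowest libraries, where 1 read of Bcas1 is 1.06 and 1.89 FPKM, and without them the log2 fold change was -0.73 (adjusted p = 0.487). Pooled reads were 72 in WT and 34 in Kdm6b-cKO, or 6.05 and 3.48 per 1000000 effective reads.

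Enpp6, which splits choline-containing lipids and marks newly formed oligodendrocytes, was low throughout at P1. WT libraries 0 to 5 were listed at 0.168, 0.107, 1.53, 2.22, 4.32 and 0.571 FPKM and Kdm6b-cKO libraries at 0, 0, 0, 0.512, 0 and 3.26 FPKM. It passed the filter, with a mean of 1.06 FPKM over 12 libraries, through the WT group. In Kdm6b-cKO, 4 libraries were at 0 and the groups overlapped, with a log2 fold change of -1.93 (SE 1.15, limma p = 0.113, adjusted p = 0.455) and an exact permutation p of 0.102.

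Among the precursor genes, Tnr, Pdgfra and Lhfpl3 had the largest differences at P1. Tnr, the matrix glycoprotein tenascin-R, was listed at 4.70, 7.49, 7.94, 8.30, 5.13 and 5.76 FPKM in WT libraries 0 to 5 and at 0, 0.688, 2.59, 1.27, 5.94 and 2.99 FPKM in Kdm6b-cKO. Only Kdm6b-cKO library 4 reached the WT range. The log2 fold change was -2.29 (SE 0.79, 95% interval -3.97 to -0.62, limma p = 0.0105, adjusted p = 0.215) and the exact permutation p was 0.0087. Without the 2 shallowest libraries it was -1.67 (adjusted p = 0.107), and no value of Tnr but that of library 0 was at 0.

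Pdgfra was listed at 8.15, 6.13, 7.92, 8.5, 10.9 and 4.86 FPKM in WT and at 0, 1.11, 7.16, 4.39, 6.30 and 2.44 FPKM in Kdm6b-cKO libraries 0 to 5. The groups overlapped in 2 Kdm6b-cKO libraries, and the log2 fold change was -1.93 (SE 0.84, limma p = 0.0371, adjusted p = 0.313, exact permutation p = 0.0216). The 3 low values belong to the 3 shallowest Kdm6b-cKO libraries: libraries 0, 1 and 5 held 0, 6 and 3 reads of Pdgfra, and libraries 2, 3 and 4 held 128, 80 and 110. At like depth, WT library 4 (816000 effective reads) held 57 reads of Pdgfra and Kdm6b-cKO library 1 (835000) held 6. This pair also differed in 45S RNA (277 and 3239 FPKM) and in olfactory receptor genes above 0 (611 and 9). Kdm6b-cKO libraries 0, 1 and 5 had the highest 45S RNA at P1 (3423, 3239 and 899 FPKM), with 476 FPKM or less in all other libraries. The part of depth, 45S RNA and olfactory receptor signal in these values was not tested. In library 0 a count of 0 allows 1.37 FPKM, which lies below the lowest WT value. Without libraries 0 and 5 the log2 fold change was -0.93 (adjusted p = 0.240), and pooled over libraries Kdm6b-cKO stood at 71.3% of WT per effective read (327 reads against 559).

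Lhfpl3, a membrane protein used as an OPC marker, was listed at 11.8, 9.18, 8.39, 9.78, 6.97 and 5.52 FPKM in WT and at 0, 3.33, 6.28, 5.49, 6.05 and 9.04 FPKM in Kdm6b-cKO. The groups overlapped and the log2 fold change was -1.51 (SE 0.87, limma p = 0.102, adjusted p = 0.438), with an exact permutation p of 0.0368. Library 0, with no read of the gene, carried most of the fold change: without it and library 5 the value was -0.69 (adjusted p = 0.197).

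The 4 remaining precursor genes had smaller fold changes at P1. Cspg4, the NG2 proteoglycan, ranged from 2.44 to 4.00 FPKM in WT (median 3.24) and from 0.709 to 7.90 in Kdm6b-cKO (median 2.03), with a log2 fold change of -0.37 (95% interval -1.55 to 0.82). Vcan, the hyaluronan-binding proteoglycan versican, ranged from 8.20 to 27.6 FPKM (median 18.9) and from 6.26 to 27.4 (median 10.7), with a log2 fold change of -0.46 (95% interval -1.30 to 0.38). Ptprz1, a receptor tyrosine phosphatase, was the highest of the 10 genes, at 55.3 to 78.6 FPKM in WT (median 66.7) and 61.4 to 97.5 in Kdm6b-cKO (median 73.2). Its log2 fold change was 0.19 (95% interval -0.23 to 0.61) and turned to -0.15 with quantile normalization. Cspg5, a transmembrane proteoglycan, ranged from 25.0 to 46.7 FPKM in WT (median 39.1) and from 23.5 to 51.1 in Kdm6b-cKO (median 32.3), a log2 fold change of -0.16 (95% interval -0.67 to 0.35). Adjusted p-values of these 4 genes in limma ranged from 0.601 upwards, and for Ptprz1 and Cspg5 the intervals exclude a fall of more than 2-fold, which those of Cspg4 and Vcan do not.

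The olfactory receptor signal moved with some of the genes. Among WT libraries alone, Enpp6 was at 0.107 to 0.168 FPKM in the 2 libraries without the signal and at 0.571 to 4.32 FPKM in the 4 with it, a log2 difference of 2.96. Gpr17 was at 0.611 to 1.52 and 1.82 to 4.09 FPKM (1.26), and Vcan at 8.20 to 12.2 and 17.5 to 27.6 FPKM (1.08). In these 3 genes and in Cspg4 (0.51) the WT libraries with and without the signal did not overlap, while Pdgfra, Tnr, Bcas1, Ptprz1, Cspg5 and Lhfpl3 overlapped and differed by 0.13, 0.16, 0.12, 0.18, -0.20 and -0.47. The signal and the genotype went together, since 4 of 6 WT libraries and 1 of 6 Kdm6b-cKO libraries carried it.

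**Figure D2:**
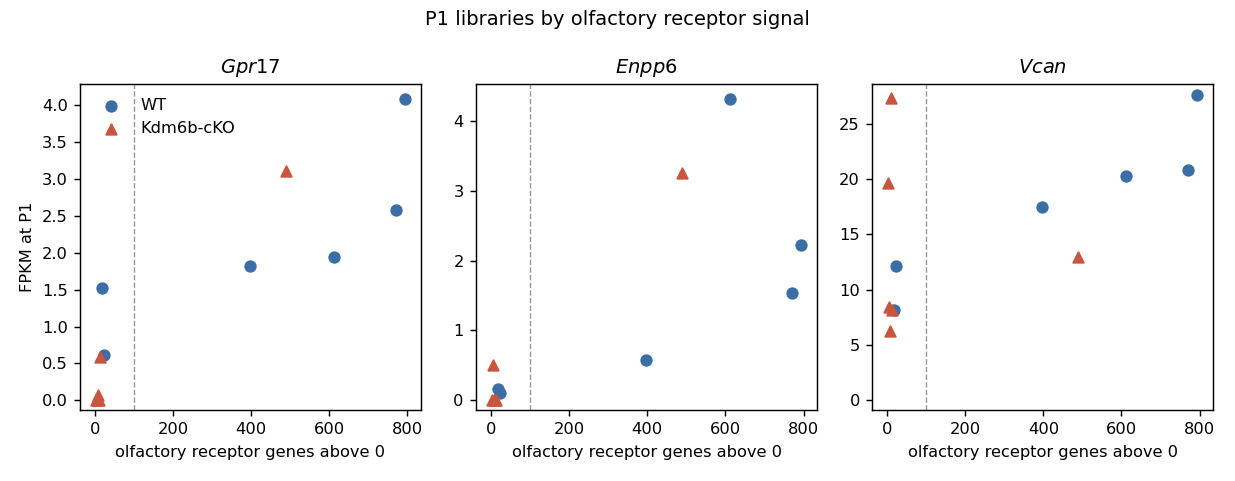
FPKM of Gpr17, Enpp6 and Vcan at P1 (linear axes) against the number of olfactory receptor genes above 0, with 1 point per library, WT as blue circles and Kdm6b-cKO as red triangles. The dashed line marks 100 receptor genes. Right of it lie 4 WT libraries and 1 Kdm6b-cKO library, and the 4 WT libraries there have higher levels of all 3 genes than the 2 WT libraries left of it.

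Within the 7 libraries without the signal (2 WT, 5 Kdm6b-cKO), the log2 difference of Gpr17 was -2.72, with every Kdm6b-cKO library (0 to 0.582 FPKM) below both WT libraries (0.611 and 1.52 FPKM), and the exact permutation p was 0.0476, the smallest possible. Pooled reads of Gpr17 there were 31 in WT and 9 in Kdm6b-cKO, or 4.86 and 0.941 per 1000000 effective reads. Tnr differed by -2.43, Lhfpl3 by -2.15, Pdgfra by -1.91 and Bcas1 by -1.41, with exact permutation p-values of 0.238, 0.333, 0.429 and 0.476. Enpp6 differed by -0.71, on 4 reads in WT and 7 in Kdm6b-cKO (0.627 and 0.732 per 1000000), and Vcan by 0.24. The 5 libraries with the signal include only 1 of Kdm6b-cKO, the shallowest of all, in which Gpr17, Enpp6, Cspg4, Ptprz1 and Lhfpl3 were above the mean of those WT libraries and Pdgfra, Tnr, Vcan and Bcas1 below every one of them. With the signal as a term in limma, the log2 fold changes were -2.54 for Bcas1, -1.96 for Tnr, -1.81 for Pdgfra, -1.63 for Gpr17, -0.14 for Enpp6 and -0.10 for Vcan, and the smallest adjusted p of the 10 genes was 0.422.

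At P30, no gene of either stage passed the test. Of the 9 genes tested (Enpp6, at a mean of 0.775 FPKM, did not pass the filter), 5 had a negative log2 fold change (54.8% of all genes did) and 4 a positive one, and none was called. Over all 13289 genes 0.226% were called lower and 0.0527% higher. The median log2 fold change was -0.05 over the 9 genes and also -0.05 over all genes tested. One gene, Cspg5, was lower at an unadjusted p under 0.05, against 7.37% of all genes lower and 5.34% higher.

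**Figure D3:**
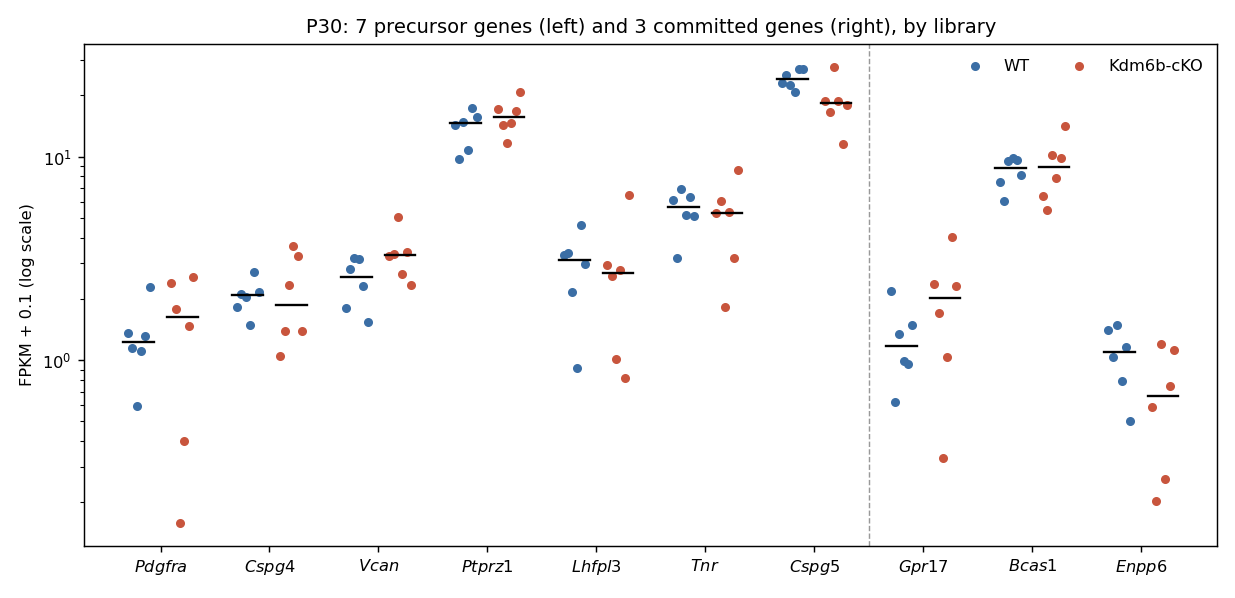
FPKM + 0.1 on a log scale in each of the 6 WT (blue) and 6 Kdm6b-cKO (red) libraries at P30, drawn as for P1, with a black bar at each group median. The groups overlap in all 10 genes, and the 2 lowest Pdgfra points (0.0586 and 0.30 FPKM) belong to Kdm6b-cKO libraries 2 and 3.

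Pdgfra was listed at 1.26, 1.04, 0.493, 1.01, 1.22 and 2.20 FPKM in WT libraries 0 to 5 and at 2.29, 1.68, 0.0586, 0.30, 1.37 and 2.47 FPKM in Kdm6b-cKO. The Kdm6b-cKO libraries fell on both sides of WT, with 2 below and 2 above every WT library. Their reads numbered 1, 5 and 17 in libraries 2, 3 and 4 and 100, 86 and 80 in libraries 0, 1 and 5. The log2 fold change was -0.27 (SE 0.68, 95% interval -1.73 to 1.20, limma adjusted p = 0.910) and 0.88 without the 3 shallowest libraries (adjusted p = 0.216). These 3 libraries were also the Kdm6b-cKO libraries high in 45S RNA: among the 8 libraries high in it the log2 difference of Pdgfra was -1.38 (exact permutation p = 0.179), and among the 4 low in it 0.71 (p = 0.25, the smallest that an exact permutation test of 1 against 3 allows).

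The other precursor genes at P30 were as follows. Cspg4 ranged from 1.39 to 2.62 FPKM in WT (median 1.98) and from 0.943 to 3.55 in Kdm6b-cKO (median 1.77), and here too the Kdm6b-cKO libraries split, with 2.24 to 3.55 FPKM in the 3 shallow ones and 0.943 to 1.29 FPKM in the others. Lhfpl3 ranged from 0.814 to 4.51 FPKM (median 3.02) and from 0.717 to 6.37 (median 2.57), and Tnr from 3.09 to 6.82 (median 5.53) and from 1.73 to 8.54 (median 5.20). Their log2 fold changes were -0.05, -0.24 and -0.23. Each of these 3 turned sign when the shallow libraries were left out or a batch term was added, as given in the closing section, so no direction can be read from them.

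Vcan and Ptprz1 were higher in Kdm6b-cKO by their means, and neither passed the test. Vcan ranged from 1.45 to 3.08 FPKM in WT (median 2.47) and from 2.25 to 4.97 in Kdm6b-cKO (median 3.20), with 4 Kdm6b-cKO libraries above every WT library and a log2 fold change of 0.45 (SE 0.27, limma p = 0.121, adjusted p = 0.525, exact permutation p = 0.0844). Ptprz1 ranged from 9.6 to 17.3 FPKM (median 14.5) and from 11.5 to 20.7 (median 15.5), a log2 fold change of 0.21 (95% interval -0.19 to 0.61). Cspg5 was the gene with the smallest p at P30. It was listed at 20.7 to 26.8 FPKM in WT (median 24.0), and 5 of 6 Kdm6b-cKO libraries lay below that range, at 11.5 to 18.8 FPKM, with the other at 27.6. The log2 fold change was -0.42 (SE 0.18, limma p = 0.0369, adjusted p = 0.358, exact permutation p = 0.0325), and -0.44 without the 3 shallowest libraries (adjusted p = 0.0748). With array weights it was -0.47 with an adjusted p of 0.0185, still under 2-fold, in a fit where 14.2% of all genes had an adjusted p under 0.05.

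The committed genes overlapped between the genotypes at P30. Gpr17 was listed at 2.09, 0.523, 1.25, 0.896, 0.854 and 1.38 FPKM in WT libraries 0 to 5 and at 2.26, 1.61, 0.232, 0.942, 3.91 and 2.22 FPKM in Kdm6b-cKO, so that 3 Kdm6b-cKO libraries were above every WT library and 1 was below. The log2 fold change was 0.39 (SE 0.56, 95% interval -0.82 to 1.59, limma adjusted p = 0.822), on 236 reads in WT and 253 in Kdm6b-cKO. Bcas1 ranged from 5.97 to 9.71 FPKM in WT (median 8.72) and from 5.40 to 14.0 in Kdm6b-cKO (median 8.79), a log2 fold change of 0.04 (95% interval -0.45 to 0.54). With 99 to 218 reads per WT library and 52 to 198 per Kdm6b-cKO library, Bcas1 was the most deeply read of the committed genes, and its interval excludes a change of 2-fold in either direction. Enpp6 ranged from 0.405 to 1.39 FPKM in WT (median 0.997) and from 0.104 to 1.1 in Kdm6b-cKO (median 0.567), with a log2 fold change of -0.83 in the fit without a filter (SE 0.53, limma p = 0.138) and an exact permutation p of 0.134. Its reads numbered 186 in WT and 67 in Kdm6b-cKO, or 4.77 and 2.46 per 1000000 effective reads.

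**Figure D4:**
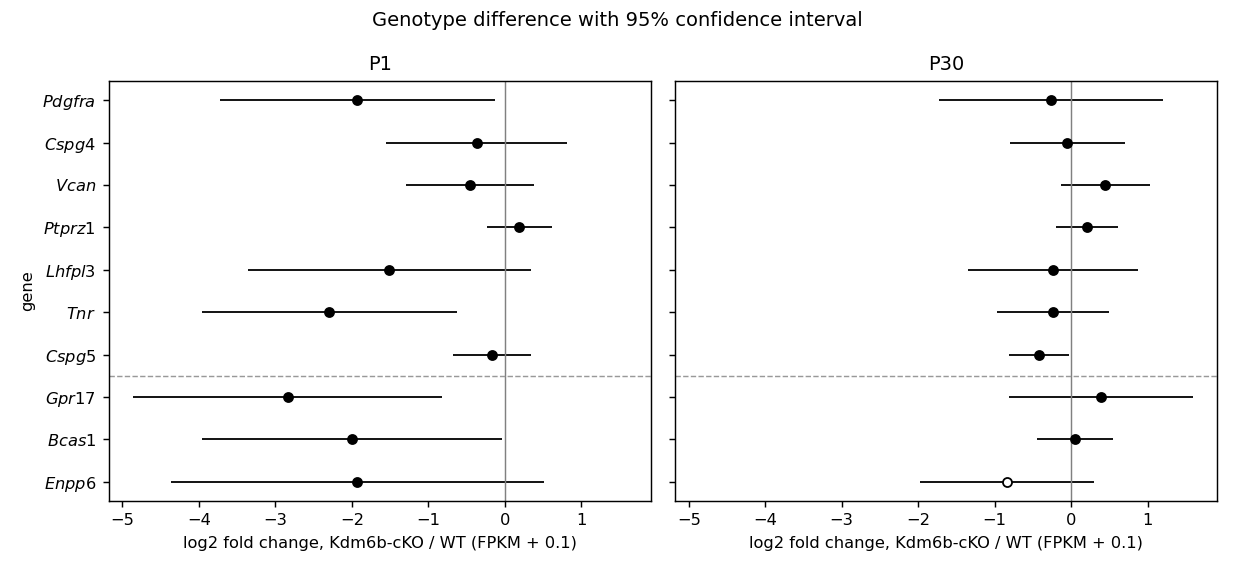
Log2 fold change of Kdm6b-cKO over WT on FPKM + 0.1 at P1 (left) and P30 (right) for each of the 10 genes, with the 95% confidence interval of limma as a bar. Filled points were in the fit over all genes and the open point, Enpp6 at P30, comes from the fit without a filter. At P1 the intervals of Pdgfra, Tnr, Gpr17 and Bcas1 lie below 0 before adjustment, and at P30 only that of Cspg5 does.

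Whether the genotype difference changed between the ages was tested in 1 fit of all 24 libraries, in which each age had its own intercept since the ages had been normalized separately. It was more positive at P30 for 8 of the 9 genes that could be tested, as for 56.7% of all genes, and Cspg5 was the exception (-0.26). The difference was 3.23 for Gpr17 on the log2 scale (95% interval 0.95 to 5.51, adjusted p = 0.233), 2.06 for Tnr (adjusted p = 0.327) and 2.04 for Bcas1 (adjusted p = 0.349). These 3 passed at an unadjusted p under 0.05, against 6.88% of the 12644 genes tested, and none passed after adjustment, where 0.00791% of genes did. For Pdgfra the difference was 1.66 (95% interval -0.69 to 4.01, adjusted p = 0.545), for Lhfpl3 1.27, for Vcan 0.90, for Cspg4 0.32 and for Ptprz1 0.02. With libraries weighted by depth, Gpr17 was at 3.38 (adjusted p = 0.0428), in a fit where 1.95% of genes had an adjusted p under 0.05.

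The 2 stages were set against each other within each library. The contrast was the mean log2(FPKM + 0.1) of the 7 precursor genes less that of the 3 committed genes. A scaling of the library cancels in it only where values lie well above the pseudocount of 0.1, and not for values at or near 0. At P1 the mean over the precursor genes was 3.68 ± 0.18 in WT and 2.74 ± 0.89 in Kdm6b-cKO, and over the committed genes 0.68 ± 0.83 and -1.58 ± 1.17 (SD, n = 6 each). The contrast was 3.00 ± 0.71 in WT and 4.32 ± 0.75 in Kdm6b-cKO, with ranges of 2.21 to 4.15 and 3.39 to 5.64 that overlapped, and a difference of 1.32. As the genes were chosen for this contrast, it has no test. Its size depended on the processing: it was 0.24 with a pseudocount of 1, 2.71 with 0.01, 0.59 with quantile normalization and 0.99 with only Pdgfra, Cspg4 and Lhfpl3 as precursor genes. The committed genes were at or near 0 in several Kdm6b-cKO libraries. The difference ran from 1.06 to 1.55 as each of the 12 libraries was left out in turn. In WT, libraries 0 and 1, without the olfactory receptor signal, were at 3.51 and 4.15, and libraries 2 to 5, with it, at 2.21 to 2.84. In Kdm6b-cKO, library 5, with the signal, was at 3.39 and the others, without it, were at 3.88 to 5.64. The part of that signal in the contrast was not tested. At P30 the contrast was 1.00 ± 0.37 in WT and 1.05 ± 0.60 in Kdm6b-cKO, a difference of 0.06, smaller than the spread between libraries and of either sign under the alternatives.

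**Figure D5:**
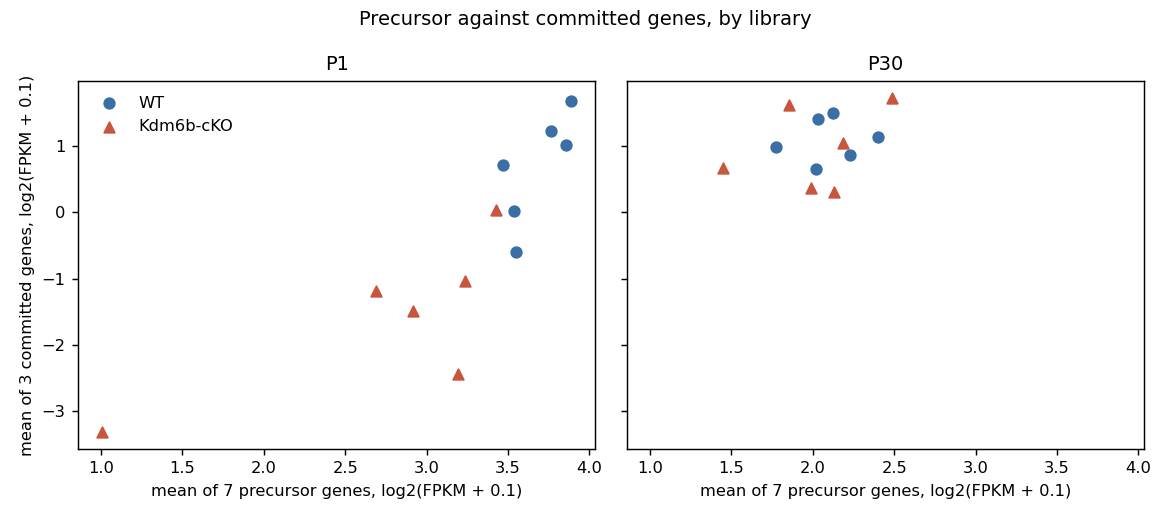
Mean log2(FPKM + 0.1) of the 3 committed genes against that of the 7 precursor genes in each library at P1 (left) and P30 (right), with WT as blue circles and Kdm6b-cKO as red triangles. At P1 the precursor means of Kdm6b-cKO (1.00 to 3.43) lie below those of WT (3.47 to 3.89) by a narrow gap, though each of the 7 genes overlapped by itself. The lowest is library 0, which is at 0 in Pdgfra, Tnr and Lhfpl3. At P30 the genotypes overlap on both axes.

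Levels of the 2 ages can only be set side by side. In WT the mean of Ptprz1 was 66.1 FPKM at P1 and 13.7 at P30, that of Vcan 17.8 and 2.37, that of Pdgfra 7.75 and 1.20 and that of Lhfpl3 8.61 and 2.78. Bcas1 went the other way, with 2.32 and 8.34 FPKM, and Tnr and Gpr17 were close, with 6.55 and 5.37 FPKM and 2.09 and 1.17 FPKM. By level per length in WT at P1, the order was Ptprz1, Cspg5, Vcan, Lhfpl3, Pdgfra, Tnr, Cspg4, Bcas1, Gpr17 and Enpp6, in which Lhfpl3 and Pdgfra, Pdgfra and Tnr, Bcas1 and Gpr17, and Gpr17 and Enpp6 differed by less than 1 SD.

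Other genes of the lineage were read beside the members. Of 20 further precursor genes, 18 were tested at each age. At P1 none of the 18 was called. At an unadjusted p under 0.05, 5 were lower and none higher, against 7.77% of all genes lower and 6.7% higher. The median log2 fold change of the 18 was -0.53, against -0.25 over all genes. Sox10, a transcription factor that oligodendrocyte maturation needs, averaged 5.91 ± 0.79 (WT) and 2.34 ± 1.11 FPKM (Kdm6b-cKO) at P1. Every Kdm6b-cKO library lay below every WT library (log2 fold change -1.41, limma adjusted p = 0.183). Such a gap was seen downwards in 0.683% of genes. Pcdh15, a protocadherin of OPCs, differed by -1.11 at P1 on that scale (adjusted p = 0.29).

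Of the 18 further precursor genes 1 was called at P30, Sox10, which fell from 9.38 ± 1.92 to 3.41 ± 0.90 FPKM (log2 fold change -1.46, limma adjusted p = 0.0204). Pcdh15 was in every Kdm6b-cKO library above every WT library (8.70 ± 1.46 and 13.0 ± 1.37 FPKM, log2 fold change 0.58, limma adjusted p = 0.134), as 0.888% of genes were. Of 20 further committed and early oligodendrocyte genes, 17 were tested at P1 with none past an unadjusted p of 0.05, and 16 at P30, with 2 lower (Tmem163 and Gpr37), 2 higher (Pik3r3 and Rras2) and none called. Of 16 mature oligodendrocyte genes, all tested at P30, 3 were called, all lower: Mag, a myelin adhesion protein (62.8 ± 9.97 and 21.2 ± 6.45 FPKM, log2 fold change -1.59, limma adjusted p = 0.0054), Mbp, myelin basic protein (-1.27, adjusted p = 0.0204) and Ppp1r14a (-2.11, adjusted p = 0.0204). Of the 16, 11 were lower at an unadjusted p under 0.05, against 7.37% of all genes lower and 5.34% higher. A negative fold change was seen in 15 of them, as in 54.8% of all genes, and the median of the 16 was -1.12. In the same libraries the median of the 7 precursor genes was -0.23. Bcas1 and Gpr17 were at 0.04 and 0.39, and Enpp6 was at -0.83 in the fit without a filter. Whether the lists differ from each other was not tested.

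Among 16 ligands, matrix molecules and binding partners of the members, 13 were tested at P1 and 11 at P30, and none was called. Mdk, the growth factor midkine that binds Ptprz1, was in every Kdm6b-cKO library above every WT library at P1 (125 ± 51.0 and 409 ± 177 FPKM, log2 fold change 1.70, SE 0.34, limma adjusted p = 0.160), as 0.603% of genes were. Contactin 1 (Cntn1), a further partner of Ptprz1, differed by -0.91 (adjusted p = 0.194), and brevican (Bcan), a proteoglycan bound by Tnr, by -0.97 (adjusted p = 0.252). At P30 Bcan was at 136 ± 17.4 and 94.2 ± 33.1 FPKM (log2 fold change -0.59, adjusted p = 0.286) and fibronectin (Fn1) at 2.63 ± 0.47 and 5.16 ± 1.40 FPKM (0.92, adjusted p = 0.127).

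Across the 12 libraries of P1, Pdgfra, Tnr and Lhfpl3 varied together (Pearson r of log2 values 0.93 for Pdgfra with Tnr, 0.93 for Pdgfra with Lhfpl3 and 0.90 for Lhfpl3 with Tnr), and library 0 of Kdm6b-cKO is at 0 in all 3. Gpr17 varied with Tnr (0.76) and with Enpp6 (0.74). At P30 Gpr17 varied with Pdgfra (0.72) and against Cspg5 (-0.73). Points share genotype, depth and the olfactory signal, so these are descriptions only. Over all genes tested, those most like Pdgfra at P1 were Ccng1 (r = 0.99), Cxcl12, Ankrd45, Ap5m1 and Pggt1b, and those most like Gpr17 were Nron (0.97), Ccr1, Atxn1, 5830444B04Rik and Hps6. Those most like Bcas1 were Fam219a (0.97), Tcp11, Nos3, Pacs1 and Eva1b, and those most like Enpp6 were Gm4926 (0.98), S1pr4, LOC115487084, Rag2 and St8sia6. At P30 the nearest gene was Gfm1 for Pdgfra (0.93), Slc35e3 for Gpr17 (0.96), S100a6 for Bcas1 (0.80) and Rom1 for Enpp6 (0.86).

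Markers of other cells were present and differed between some groups. At P1 the summed level of 11 GABAergic markers, a cell type that Emx1 progenitors hardly give rise to, was 663 to 1453 FPKM in WT and 897 to 2794 FPKM in Kdm6b-cKO, and that of 9 glutamatergic markers 452 to 711 and 551 to 970 FPKM. At P30 the GABAergic sum was 41.5 to 529 FPKM in WT and 196 to 376 in Kdm6b-cKO. There 5 of 8 tested genes were higher in Kdm6b-cKO at an unadjusted p under 0.05, against 5.34% of all genes, and none was called. Astrocyte markers, which bear on Ptprz1, Vcan and Cspg5, summed to 202 to 304 and 119 to 365 FPKM at P1 and to 121 to 185 and 111 to 181 FPKM at P30. At an unadjusted p under 0.05, 4 of these 11 genes were lower at P1, against 7.77% of all genes. At P30, 2 were lower and 1 higher, against 7.37% and 5.34% of all genes. The 5 fibroblast markers, which bear on Pdgfra, summed to 40.5 to 145 and 44.7 to 105 FPKM at P1 and to 0.903 to 10.2 and 4.64 to 8.34 FPKM at P30. The 7 endothelial and mural markers, which bear on Cspg4, summed to 111 to 217 and 60.8 to 200 FPKM at P1 and to 3.64 to 14.7 and 6.33 to 13.0 FPKM at P30. Microglial markers summed to 65.2 to 145 and 26.6 to 141 FPKM at P1 and to 5.97 to 32.4 and 12.9 to 32.8 FPKM at P30. No list was at 0 in a group, and the part of these cells in the members' values was not tested.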

How the data were processed

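RNA of sorted SUN1-GFP+ cortical nuclei was sequenced in 6 WT and 6 Kdm6b-cKO libraries at each age. Per the labels' processing notes and the methods, the authors aligned reads to mm9 with HISAT2 and normalized them with Cuffdiff; versions were not given in the sources used here. The authors deposited FPKM values per library, which had been scaled between the libraries of an age (their 75th percentiles are alike), and their own Cuffdiff comparison per age, whose fold changes and p-values were not used. Column numbers do not match the replicate numbers of the labels, so columns were assigned to groups only.

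FPKM were tested with limma 3.58.1 in R 4.3.3 (eBayes with trend, two-sided) on log2(FPKM + 0.1), a scale on which the fold change of low genes depends on the pseudocount and on libraries at 0 (at P1, the means alone give -1.74 for Gpr17, -0.90 for Bcas1 and -1.12 for Pdgfra), for genes that averaged 1 FPKM or more across an age. Single genes were also tested by exact permutation. Effective depth was read from 1-read steps, assuming fragments of 200 bases. Between 60.8% and 70.4% of a library's low values came out whole, so depths are approximate and no count test was run. Reads per gene are given where low values came out whole, which for single genes was judged within 0.15 of a read. They were taken at the annotated transcript length (Gpr17, Bcas1, and approximately Pdgfra and Cspg4) or at a fitted length (Lhfpl3, Enpp6). Read limits cover counting error only. The fit was also run on simulated data with independent normal noise around each gene's mean. That simulation held no shallow libraries and no shared signal, so it does not cover those features.

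The members, the lists and the grouping of libraries by olfactory or 45S signal were chosen with earlier results of these data known. By rule, all members were to be named, and from other lists up to 4 genes per age (called, then not overlapping, then smallest p), and the 5 genes most correlated with each of 4 members, of which only the first is given at P30. Alternatives were pseudocounts of 1 and 0.01, quantile normalization, median-of-ratios scaling, no filter and a filter at 5 FPKM. Others were no trend, array weights, weights by depth, leaving out each library and, in the fits of single ages only, a batch term. Leaving out the shallowest libraries was added after seeing the data and was done within each age only. Figures used matplotlib 3.10.9 in Python 3.11.15.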

Additional observations from a re-analysis of the deposited data

Results flagged for a closer look

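In a group of 6 libraries, a value was looked at again when its gap to the nearest other library, as a share of the group's range, was above Dixon's 95% critical value. Of 40 groups (10 genes, 2 genotypes, 2 ages), 4 met this, where chance gives about 1 in 20. All 4 were single high values in Kdm6b-cKO. At P1 they were Gpr17 in library 5 (3.11 FPKM, a gap of 0.813 of the range, 3 reads), Enpp6 in library 5 (3.26 FPKM, 0.843, 3 reads) and Bcas1 in library 1 (4.35 FPKM, 0.635, 10 reads). At P30 it was Lhfpl3 in library 5 (6.37 FPKM, 0.628, 94 reads). Library 5 at P1 is the shallowest of all and the only Kdm6b-cKO library with the olfactory receptor signal. Without it, the log2 fold change of Gpr17 at P1 was -3.56 (adjusted p = 0.0888). The part of depth and of that signal in these values was not tested.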

How the results depend on the processing

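No paired analysis was possible because the columns carry numbers from 0 to 5 that do not match the replicate numbers of the labels. No member was called at either age, or for the difference between ages, in the main test; 1 was with weights by depth at P1 (Gpr17, -2.87, adjusted p = 0.0436), 1 for the difference between ages with weights by depth (Gpr17, 3.38, adjusted p = 0.0428) and 1 for it with array weights (Gpr17, 3.57, adjusted p = 0.0234). All these calls rest on Gpr17, which at P1 passed the filter through WT. No weighted fit was run without the filter, and no fit of the difference between ages held a batch term. Without a filter or weights, the limma adjusted p of Gpr17 was 0.230 at P1 and 0.235 for the difference between ages. The count stayed at 0 in every leave-one-out fit. Over the other alternatives the log2 fold change of Gpr17 at P1 ran from -4.64 (pseudocount 0.01) to -1.08 (pseudocount 1). The contrast of precursor and committed genes at P1 (1.32) was 0.24 with a pseudocount of 1, 2.71 with 0.01, 0.59 with quantile normalization and 0.99 with only Pdgfra, Cspg4 and Lhfpl3. At P30 (0.06) it turned to -0.43 with medians over each set, -0.0361 with a pseudocount of 1 and -0.0499 with only those 3 genes, and ran from -0.0972 to 0.22 without single libraries. Cspg5 at P30 had an adjusted p of 0.0185 with array weights (-0.47), short of the 2-fold condition.

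Directions turned in log2 fold changes near 0. At P1 these were Cspg4 with a batch term (0.17) and Ptprz1 with quantile normalization (-0.15). At P30, Pdgfra was 0.64 with array weights, 0.0047 with a pseudocount of 1, 0.37 with quantile normalization, 0.19 with weights by depth and 0.88 without the 3 shallowest libraries. Lhfpl3 was 0.17 with array weights and 0.50 without those libraries, Tnr 0.0590 and 0.29, and Bcas1 -0.20 and -0.0672 (-0.0868 with weights by depth). Cspg4 was 0.24 with a batch term, and its difference between ages -0.0301 with quantile normalization. Leaving out single libraries at P30 gave -0.54 to 0.27 for Pdgfra, -0.23 to 0.13 for Cspg4, -0.55 to 0.0489 for Lhfpl3, -0.42 to 0.0268 for Tnr and -0.0998 to 0.17 for Bcas1, and for the difference between ages -0.0113 to 0.65 for Cspg4 and -0.0781 to 0.103 for Ptprz1. The cause of these changes was not tested. For single genes and all alternatives but those that left out 1 library, 253 values kept direction and side, 16 turned and 3 came to pass the threshold. This tally includes the fits without the shallowest libraries.

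In the shallowest library at P1, 1 read of Bcas1 is 1.89 FPKM and 1 read of Lhfpl3 is 1.82 FPKM; the WT mean of Bcas1 at P1 was 2.32 FPKM. Enpp6 failed the filter without any 1 of 3 libraries at P1 and has no value there.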
